A study of Mus musculus with 6 samples.

Results

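The genes described here encode the main proteins of the basement membrane that surrounds each adipocyte. The set has 10 genes of the 19509 symbols in the table, and these are *Hspg2* together with *Agrn*, *Nid1*, *Nid2*, *Lama4*, *Lamb1*, *Lamc1*, *Col4a1*, *Col4a2* and *Col18a1*. It was chosen by the level of *Hspg2*, which was lower in the 3 libraries labelled *Lexis*-AdKO than in the 3 labelled *Lexis*-AdWT, so the values of *Hspg2* are given as a description and without a test. The other genes were added for what their proteins do, with earlier results of these data known. RNA was taken from inguinal white adipose tissue (iWAT), the subcutaneous depot of the groin, of mice on a C57BL/6 background that had eaten a Western diet for 12 weeks. *Lexis*-AdKO mice carry *Lexis* fl/fl, a floxed allele of the long noncoding RNA *Lexis*, together with a Cre transgene under the adiponectin promoter (Adipoq-cre), which recombines in adipocytes and leaves the other cells of the depot with the intact allele. *Lexis*-AdWT mice are littermates with *Lexis* fl/fl and no Cre, so both groups share the floxed allele, the diet and the depot. Neither the sex nor the age of these 6 mice is given in the labels, and no library without a floxed allele or on another diet was analysed here.

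A basement membrane is a thin sheet of matrix laid against the surface of a cell. Laminins, trimers of an α, a β and a γ chain, assemble at the surface on integrins and dystroglycan, and type IV collagen forms a second, crosslinked network. Nidogens hold both networks together, and the heparan sulfate proteoglycans perlecan (*Hspg2*), agrin (*Agrn*) and collagen XVIII (*Col18a1*) fill them and bind growth factors and lipoprotein lipase through their sugar chains. In fat, each adipocyte is wrapped in such a sheet, as are capillaries, smooth muscle cells and the Schwann cells of nerves, so in bulk tissue the transcripts come from several cell types at once.

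Total counts ran from 14470542 to 17882713 per library, and a symbol with several rows is represented by the row with the highest total. Of the 10 genes, 9 had a row and 6 passed the filter on low counts that left 9872 rows for testing (*Hspg2*, *Nid1*, *Lama4*, *Lamb1*, *Lamc1* and *Col18a1*). The counts of the targeted gene do not bear out the labels, and they are low. Of 16 published RNA FISH probes against *Lexis*, 9 matched exactly within *4930412L05Rik* (NCBIM37, chr4:53217938-53230729), whose counts were 8, 9 and 8 in libraries labelled AdWT against 21, 11 and 13 in libraries labelled AdKO. With 70 counts in total, this row does not decide whether the labels hold, and every direction below rests on the labels. Markers of adipocytes were present in all 6 libraries, and those of skeletal muscle were uneven, with all 7 tested of 12 listed lower in AdKO (median log2 fold change -3.50) and a summed level of 19.7 to 178 normalised CPM (counts scaled to a common library size) in libraries labelled AdWT, highest in AdWT replicate 2, and 6.07 to 7.22 CPM in libraries labelled AdKO.

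*Hspg2* encodes perlecan, a very large proteoglycan whose protein core carries heparan sulfate chains and binds laminin, nidogen and collagen IV. The gene (ENSMUSG00000028763.10) lies on the plus strand at chr4:137024634-137126545 of NCBIM37, has 5 annotated transcripts and spans 14.357 kb of exon. It has 2 rows, of which the second holds a total of 1 count and is left aside. Its counts were 28396, 32752 and 25821 in libraries labelled AdWT against 18459, 22337 and 18508 in libraries labelled AdKO. After scaling by edgeR's TMM method these are 1858, 1958 and 1728 CPM against 1269, 1471 and 1112 CPM. The lowest library labelled AdWT lay above the highest labelled AdKO, so the groups did not overlap, and AdKO replicate 3 was the lowest of all. The mean level was 1848 ± 115 CPM (SD, n = 3) in AdWT and 1284 ± 180 CPM (SD, n = 3) in AdKO, which is 69.5% of the AdWT level on the scale of the fitted fold change. *Hspg2* was chosen for being lower, so the size of its fold change may be overstated. The interval given next describes spread and is not a test of a difference. The log2 fold change, AdKO over AdWT, was -0.53 (standard error 0.118, 95% interval -0.80 to -0.25). With each library left out in turn it lay between -0.64, without AdKO replicate 2, and -0.43, without AdKO replicate 3, and it was -0.49 without AdWT replicate 2, the library richest in skeletal muscle markers. In whole tissue, fewer cells of a type and less RNA per cell cannot be told apart.

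Of the 8 adipocyte markers tested out of 10 listed, 6 had log2 fold changes under 0 and 2 above, with a median of -0.19 and none past the adjusted threshold. *Fabp4*, a fatty acid binding protein, *Lep*, the hormone leptin, and *Cd36*, a fatty acid transporter, were lower without overlap (log2 fold changes -0.23, -0.46 and -0.97). *Pck1*, an enzyme of glyceroneogenesis, was higher without overlap (0.66). Groups thus did not overlap in 4 of the 8, against 11.9% of all rows. By edgeR 3 of the 8 had an unadjusted p under 0.05, against 5.73% of all rows. The row of *Cd36* was low, with 131 to 360 counts per library, and need not hold all reads of the gene. The summed level of the adipocyte markers was 46325 to 54792 CPM in libraries labelled AdWT against 41559 to 42272 CPM in libraries labelled AdKO. *Fabp4* alone made up 64.0% to 71.9% of that sum in each library. *Lep* (means of 10290 CPM in AdWT and 7463 CPM in AdKO) and *Adipoq* (6422 and 5389 CPM) made up most of the rest. Within libraries labelled AdWT the sum was highest in replicate 3. Epithelial markers (6 of 8 with a row) stood out in replicate 3 of each group, with a summed level of 22.5 CPM in AdWT replicate 3 and 53.1 CPM in AdKO replicate 3, against 1.83 to 2.68 CPM in the other libraries. For *Hspg2*, leaving out AdWT replicate 3 gave a log2 fold change of -0.58 and leaving out AdKO replicate 3 gave -0.43. Summed levels overlapped between the groups for endothelial markers (9 of 12 with a row, 1159 to 1680 CPM against 1151 to 1631 CPM), mural markers (7 of 10, 359 to 553 CPM against 463 to 508 CPM), fibroblast markers (7 of 10, 3455 to 7510 CPM against 5677 to 10331 CPM), macrophage markers (7 of 10, 529 to 886 CPM against 810 to 994 CPM), Schwann cell markers (6 of 10, 74.2 to 88.7 CPM against 77.8 to 92.7 CPM) and B cell markers (7 of 8, 2.07 to 9.75 CPM against 1.80 to 5.07 CPM). *Col3a1* held most of the fibroblast sum and *Cdh5* most of the endothelial sum. *Tnnt3* and *Myh4* of skeletal muscle, *Ncmap* of Schwann cells, *Adgre1* of macrophages and *Cr2* of B cells were at 0 in all 6 libraries. *Kdr*, *Pdgfrb* and *Pdgfra* had only 7, 1 and 54 counts in total. A row at or near 0 need not mean an absent transcript, since *Mrc1* and *C1qa* of macrophages had means of 374 and 396 CPM. The sums therefore describe these rows and not the amount of each cell type. The part of these cell types in the level of *Hspg2* was not tested.

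**Figure D1:**
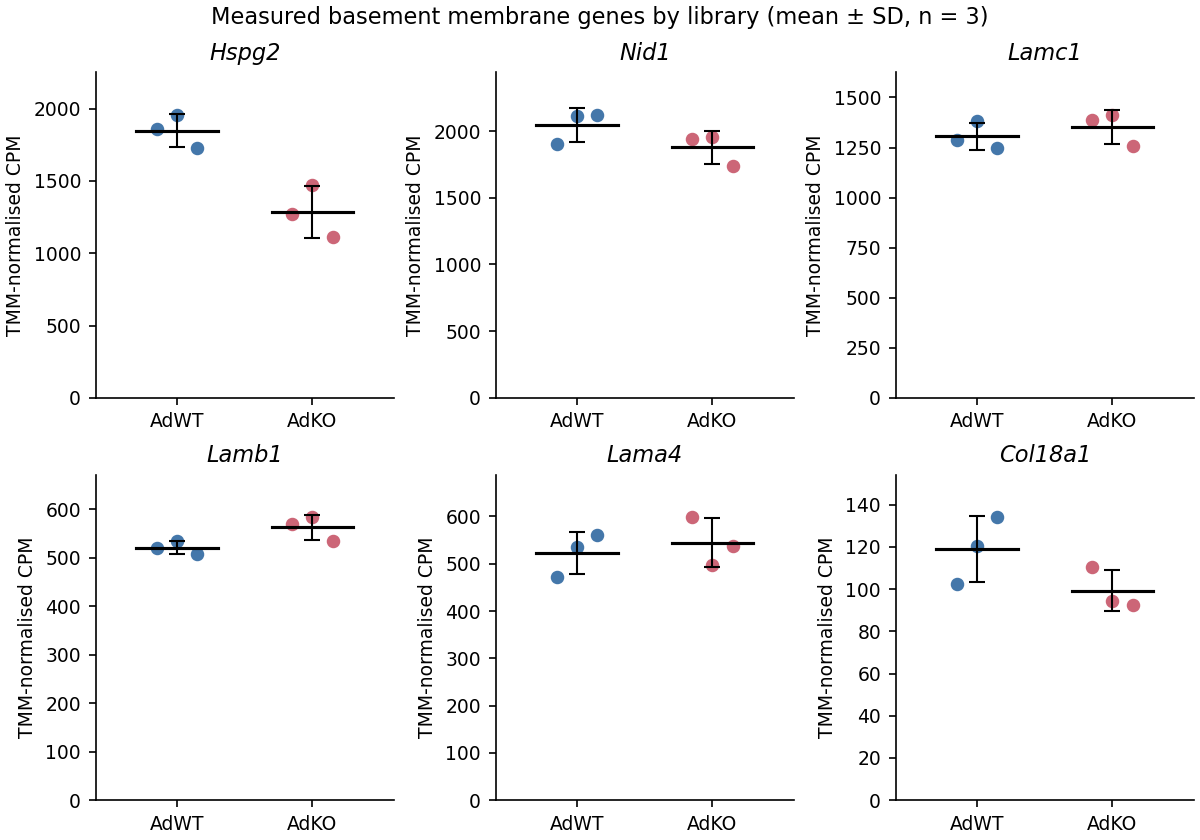
TMM-normalised CPM of the 6 measured basement membrane genes in each of the 6 libraries (points), with the mean (line) and SD (bars) of the 3 libraries of a group, each axis starting at 0. *Hspg2* is the gene whose groups do not overlap, at 1728 to 1958 CPM in AdWT and 1112 to 1471 CPM in AdKO.

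The stretches of sequence just upstream of *Hspg2*, *Nid1* and *Lamb1* are shown so that a gene that was lower can be set beside a pair whose groups overlapped. They come from RefSeq promoters of GRCm38.p6, a later build than that of the counts, and they end where the first annotated exon of the older annotation begins. The RefSeq table held 7 of the 10 genes, and not *Nid2*, *Lama4* or *Lamc1*. All lie on the plus strand, at chr4:137468553-137468718 for *Hspg2*, chr13:13437352-13437601 for *Nid1* and chr12:31265043-31265233 for *Lamb1*, and the capitals mark the GC box GGGCGG or its reverse complement.
*Hspg2*: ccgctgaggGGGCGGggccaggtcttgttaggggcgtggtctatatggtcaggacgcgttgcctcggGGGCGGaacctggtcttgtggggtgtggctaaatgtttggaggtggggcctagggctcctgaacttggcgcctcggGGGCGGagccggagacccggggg
Nid1: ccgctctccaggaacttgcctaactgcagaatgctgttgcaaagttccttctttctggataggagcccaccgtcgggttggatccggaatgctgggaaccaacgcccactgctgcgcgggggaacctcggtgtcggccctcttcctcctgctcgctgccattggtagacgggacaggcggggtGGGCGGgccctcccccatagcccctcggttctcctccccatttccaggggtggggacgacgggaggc
Lamb1: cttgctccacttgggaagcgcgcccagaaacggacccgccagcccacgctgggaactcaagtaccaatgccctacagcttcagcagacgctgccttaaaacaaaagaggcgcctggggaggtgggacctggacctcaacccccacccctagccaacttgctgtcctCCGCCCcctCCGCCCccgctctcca
In the 250 bases before the RefSeq start, counting both strands, *Hspg2* held 5 copies of GGGCGG, *Nid1* held 1 and *Lamb1* held 2. *Col18a1*, whose groups also overlapped, has a pair of starts in the table, with 3 copies before one and 0 before the other, and its sequence is not shown. The copies of *Hspg2* that are not in the printed stretch lie in the 84 bases nearest its start, which overlap an exon. A promoter with at least 1 copy is common (32.7% of 32851 promoters), and one with 5 or more is not (1.93%). CCAAT occurred in 33.8% of promoters, with no copy in that of *Hspg2* and 1 each in those of *Nid1* and *Lamb1*. TATAAA (12.4% of promoters), the TCF/LEF core CTTTGA (13.8%) and the PPAR site DR1, AGGTCA repeated in the same orientation with any base between (0.0335%), did not occur in these letters in any of the 3 windows. These are matches of letters and not measured binding sites.

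*Nid1* encodes nidogen, the short rod that joins laminin to collagen IV and also binds perlecan. It lies at chr13:13529869-13604542 of NCBIM37 on the plus strand (ENSMUSG00000005397.7). Its level was 1900, 2116 and 2122 CPM in libraries labelled AdWT against 1942, 1952 and 1736 CPM in libraries labelled AdKO. AdWT replicate 1 lay below the first pair of AdKO libraries, so the groups overlapped. The means were 2046 ± 126 CPM and 1877 ± 122 CPM (SD, n = 3 each). This gave a log2 fold change of -0.12 with a standard error of 0.0919 (adjusted p = 0.855, edgeR with Benjamini-Hochberg adjustment over all rows). The 95% interval of -0.34 to 0.09 includes 0, and the value was -0.0709 without AdKO replicate 3.

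*Col18a1* encodes the core of collagen XVIII, a collagen that carries heparan sulfate and releases endostatin from its end. The gene is at chr10:76514923-76629293 of NCBIM37 on the minus strand (ENSMUSG00000001435.8). Its level was 103, 120 and 134 CPM in libraries labelled AdWT against 110, 94.6 and 92.7 CPM in libraries labelled AdKO. AdKO replicate 1 exceeded AdWT replicate 1, and the other AdKO libraries were the lowest of the 6. The means were 119 ± 15.9 CPM and 99.2 ± 9.78 CPM (SD, n = 3 each), and the log2 fold change came to -0.26 (standard error 0.117, 95% interval -0.54 to 0.01) and an adjusted p of 0.851. It was -0.18 without AdWT replicate 3. *Col18a1* has 3 rows, and its end overlaps *Slc19a1* on the opposite strand at chr10:76514923-76523747. The sources used here do not say whether counting used strand, so the reads of this pair cannot be told apart where they overlap.

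The 3 laminin chains had log2 fold changes above 0, each with overlapping groups. *Lamb1*, a β chain (ENSMUSG00000002900.8, chr12:31950099-32014509 of NCBIM37, plus strand), was at 520.2, 534.4 and 507.4 CPM in libraries labelled AdWT against 570.3, 584.3 and 534.0 CPM in libraries labelled AdKO. AdKO replicate 3 fell just under AdWT replicate 2, and the other AdKO libraries were above all of AdWT. Its means of 521 ± 13.5 CPM and 563 ± 26.0 CPM (SD, n = 3 each) gave a log2 fold change of 0.11 (standard error 0.0692, 95% interval -0.05 to 0.27, adjusted p = 0.853). *Lamc1*, the γ chain shared by most laminins (ENSMUSG00000026478.8, chr1:155066052-155179916, minus strand), was at 1290, 1382 and 1247 CPM against 1387, 1414 and 1257 CPM. The groups overlapped, and the log2 fold change came to 0.05 (standard error 0.0851, 95% interval -0.15 to 0.25, adjusted p = 0.916), which lay between 0.00943 without AdWT replicate 3 and 0.10 without AdKO replicate 3. *Lama4*, the α chain typical of fat, muscle and vessel wall (ENSMUSG00000019846.5, chr10:38685321-38829994, plus strand), was at 473, 535 and 560 CPM against 599, 497 and 538 CPM. AdWT replicate 1 was the lowest and AdKO replicate 1 the highest, and the log2 fold change of 0.06 (standard error 0.0995, 95% interval -0.17 to 0.29, adjusted p = 0.915) became -0.01 without AdWT replicate 1 and -0.02 without AdKO replicate 1. The loci of *Lamb1* and *Lamc1* each hold a gene model on the opposite strand (*Gm11053* and *Gm8818*), for which no row was analysed here.

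*Agrn*, *Nid2*, *Col4a1* and *Col4a2* gave no usable level. Agrin, best known from the neuromuscular junction, had a highest row of 1, 0 and 5 counts in libraries labelled AdWT against 2, 2 and 2 in libraries labelled AdKO. *Nid2*, the second nidogen, had 0, 1 and 2 counts against 0, 0 and 2. *Col4a1*, which with *Col4a2* makes the collagen IV trimer of nearly all basement membranes, had 3, 5 and 2 counts against 1, 2 and 6, and no row of *Col4a2* was analysed here. A row this low need not mean a transcript this rare, since among endothelial markers *Eng* and *Vwf* had highest rows of 85 and 81 counts in total over the 6 libraries while *Cdh5* had 87253. The number of rows of a symbol did not separate low from high genes, as *Lama4* with 5 rows and *Lamb1* with 4 had highest rows of 49747 and 50526 counts in total. The 3 genes with a row had between 2 and 4 rows each, and how reads shared by several rows were counted is not given in the sources used here. Most counts were at or near the floor of 3 that a count of 0 allows, so no fold change is given.

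Among all 9872 rows tested, 0 (0%) passed an adjusted p of 0.05 by edgeR, 566 (5.73%) had an unadjusted p under 0.05, of which 294 (2.98% of rows) were lower in libraries labelled AdKO, and DESeq2 with its defaults called 17. Apart from *Hspg2*, 0 of the other 5 measured genes passed either threshold in edgeR, and 0 were called by DESeq2. Of these 5, *Nid1* and *Col18a1* (2 of 5) had a log2 fold change under 0, against 4767 of all rows (48.3%), and with *Lama4* this became 3 of 5 without AdWT replicate 1 or without AdKO replicate 1. Groups that did not overlap were found in 0 of the 5, against 1173 rows (11.9%) in either direction and 565 rows (5.72%) lower. The median log2 fold change was 0.05 over the 5 genes and 0.01 over all rows, and with *Hspg2*, whose values chose the set, it was -0.04 over 6. Summed over the 6 genes the level was 6362 ± 257 CPM in AdWT and 5720 ± 396 CPM in AdKO, and without *Hspg2* it was 4515 ± 206 CPM and 4436 ± 244 CPM (SD, n = 3 each). AdKO replicate 3 was the lowest library for 3 of the 6 genes and AdWT replicate 3 for 2 of them.

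**Figure D2:**
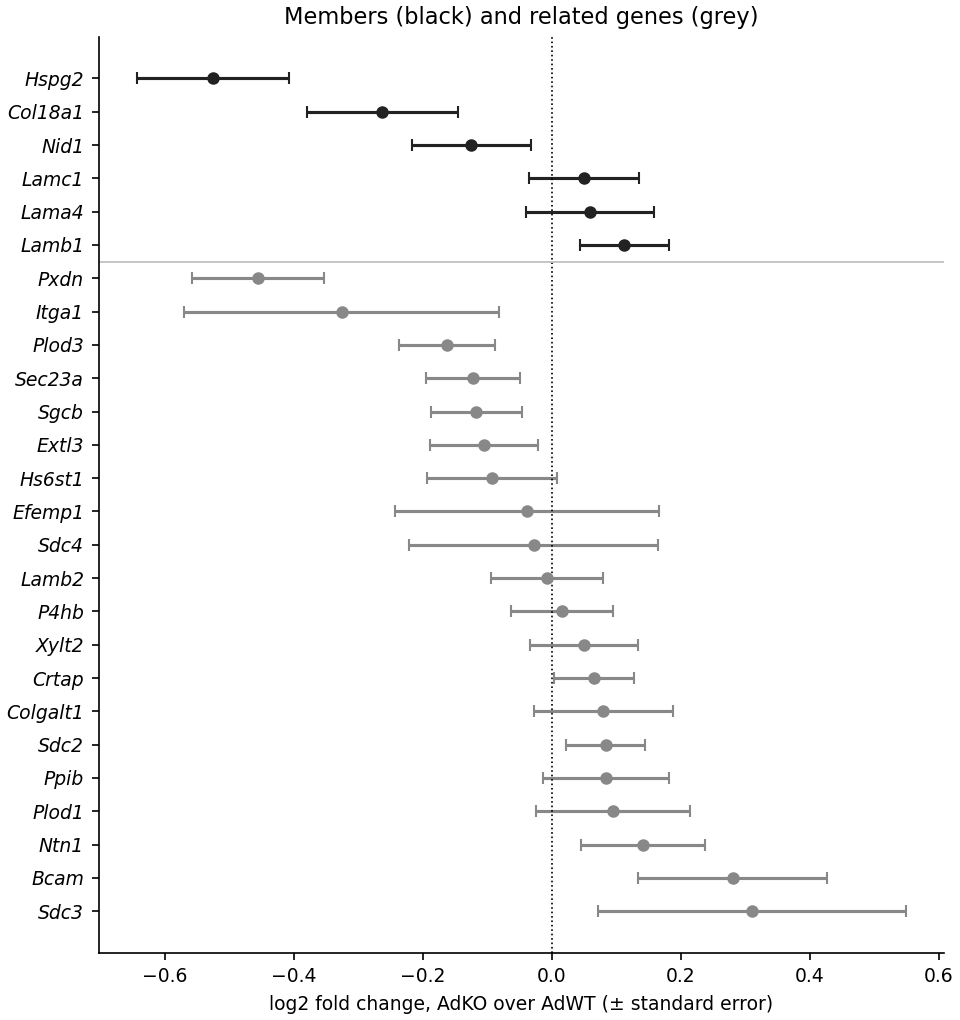
Log2 fold changes (AdKO over AdWT, points) with standard errors (bars) of the 6 measured members of the set (black) and of the 20 related genes named by rule (grey). *Hspg2* at -0.53 and *Pxdn* at -0.46 lie farthest below 0 and most others lie within 0.2 of it.

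A ratio of counts within a library depends neither on its depth nor on the scaling. *Lamc1*, the chain that both tested partners join, served as the denominator. The count ratio of *Lamb1* to *Lamc1* was 0.403, 0.387 and 0.407 in libraries labelled AdWT against 0.411, 0.413 and 0.425 in libraries labelled AdKO. These groups did not overlap, the difference was 0.06 on the log2 scale, and the two-sided exact permutation test gave p = 0.1, the smallest that 3 libraries against 3 allow (adjusted p = 0.2 over the 2 ratios tested). For *Lama4* to *Lamc1* the ratios were 0.366, 0.387 and 0.449 against 0.432, 0.351 and 0.428, with full overlap and an exact permutation p of 1. A pair of further ratios, *Col4a1* to *Col4a2* and *Nid1* to *Nid2*, was planned and could not be computed from the low or missing rows.

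The remaining ratios were chosen after the values were seen and carry no test. *Hspg2* to *Lamc1* was 1.44, 1.42 and 1.39 in libraries labelled AdWT against 0.915, 1.04 and 0.885 in libraries labelled AdKO, a log2 difference of -0.58. Within AdWT this ratio varied little, while AdKO replicate 2 stood above the other AdKO libraries. *Nid1* to *Lamc1* was 1.47, 1.53 and 1.70 against 1.40, 1.38 and 1.38, so that in this form the groups of *Nid1* did not overlap (log2 difference -0.17), unlike those of its CPM values. *Hspg2* to *Nid1* was 0.978, 0.925 and 0.814 against 0.653, 0.754 and 0.641, again without overlap (log2 difference -0.41). Counts of *Hspg2* were lower relative to both *Lamc1* and *Nid1* in each library labelled AdKO. As *Hspg2* was chosen for being lower in these libraries, this follows largely from the choice. *Col18a1* to *Lamc1* overlapped between groups, with a log2 difference of -0.31.

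**Figure D3:**
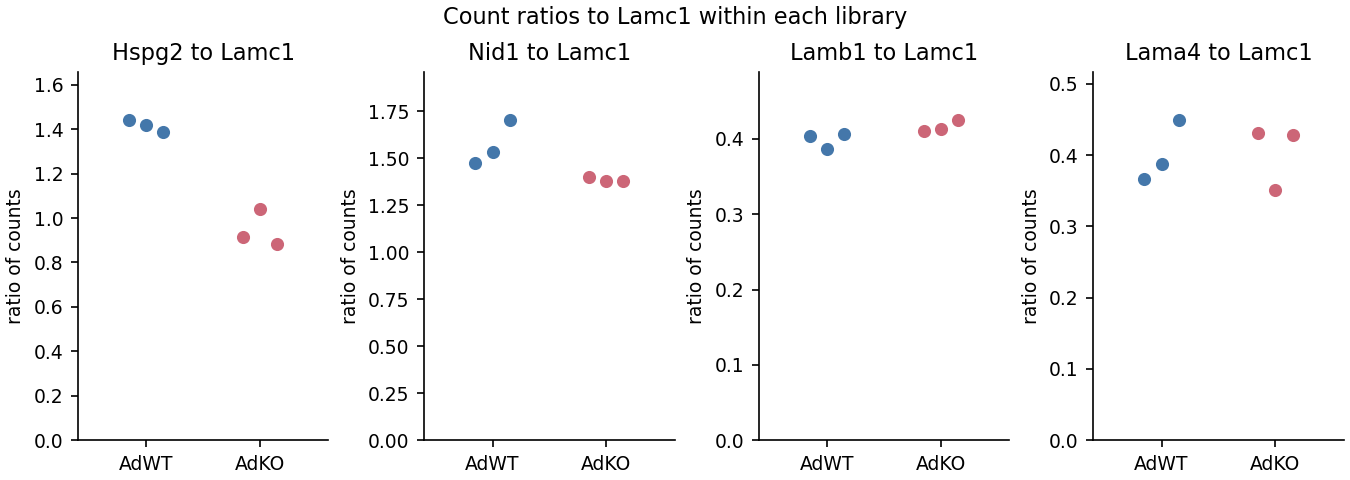
Ratio of counts to those of *Lamc1* within each library (points) for *Hspg2*, *Nid1*, *Lamb1* and *Lama4*, by group, each axis starting at 0. The ratio of *Hspg2* runs from 1.39 to 1.44 in AdWT and from 0.885 to 1.04 in AdKO, that of *Lama4* overlaps, and *Lamb1* differs by 0.06 on the log2 scale.

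Per kb of exon, *Nid1* was the highest at 338 ± 20.9 CPM per kb in AdWT and 310 ± 20.2 CPM per kb in AdKO (SD, n = 3 each). *Lamc1* followed with 158 ± 8.29 and 164 ± 10.1 CPM per kb. *Hspg2* stood at 128.7 ± 8.04 CPM per kb in AdWT, close to *Lamb2*, a β chain outside the set, at 128 ± 7.96 CPM per kb. In AdKO, *Hspg2* was at 89.4 ± 12.5 CPM per kb and *Lamb2* at 128 ± 9.58. *Lamb1* (52.5 ± 1.36 and 56.8 ± 2.62 CPM per kb) and *Lama4* (43.3 ± 3.74 and 45.1 ± 4.27) came next. *Col18a1* was the lowest measured member, at 17.0 ± 2.26 and 14.1 ± 1.39 CPM per kb. The 6 members kept the same order in both groups, and in neither group did the ranges of neighbours in that order overlap, while *Hspg2* and *Lamb2* overlapped in AdWT and not in AdKO. *Lama5*, the α chain of many mature basement membranes, was at 7.49 ± 0.892 and 6.72 ± 0.442 CPM per kb, below *Lama4*, and no row of *Lama2* was analysed here. Exon lengths are those of all annotated exons of a gene joined, and a transcript may use fewer. Each level is that of the highest row of a gene, which need not hold all of its reads. The order between genes is therefore that of these rows and need not be that of the transcripts.

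**Figure D4:**
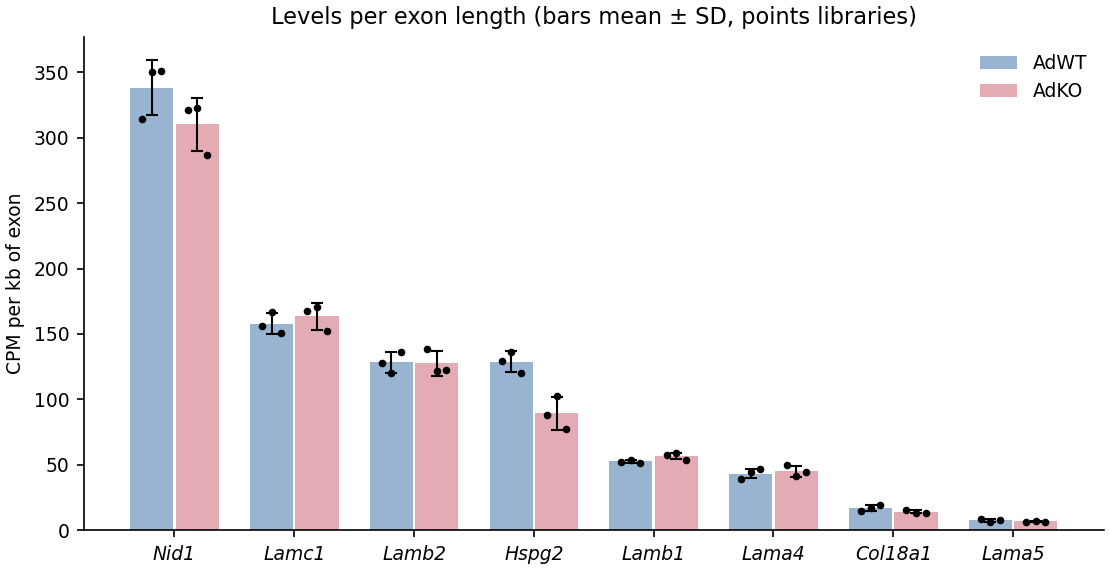
Mean level per kb of exon (bars), SD (error bars, n = 3) and single libraries (points) of the 6 measured members of the set and of the laminin chains *Lamb2* and *Lama5*, in CPM per kb, from an axis starting at 0. *Nid1* is highest at 338 CPM per kb in AdWT, *Hspg2* goes from 128.7 to 89.4 CPM per kb and *Lama5* is lowest.

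Genes that make, fold, modify or bind these proteins had median log2 fold changes between -0.08 and 0.08 by list. The 6 related lists hold 97 genes, of which 85 had a row and 59 were tested, where 32 were higher and 27 lower (median log2 fold change 0.02). By edgeR 0 of the 59 had an adjusted p under 0.05 and 3 (5.08%) an unadjusted p under 0.05 (*Pxdn*, *Hmcn2* and *Xylt1*), a share near that of all rows. Groups did not overlap in 4 (6.78%), which were these 3 and *Sgcb*, against 11.9% of all rows.

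Other laminin chains had 4 of 8 genes tested, 1 higher and 3 lower, with a median log2 fold change of -0.08. *Lamb2* was at 722 ± 44.7 CPM in AdWT and 718 ± 53.9 CPM in AdKO (SD, n = 3 each), a log2 fold change of -0.01 (adjusted p = 0.990), which was 0.04 with library size scaling. *Lama5* was at 85.4 ± 10.2 against 76.7 ± 5.05 CPM (log2 fold change -0.16, adjusted p = 0.853). Other collagen IV chains and multiplexins had 3 of 5 tested, at a summed level of 15.8 to 18.5 CPM in AdWT and 14.4 to 17.5 CPM in AdKO over the 4 with a row, with a median of -0.08.

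Accessory proteins had 11 of 19 genes tested, 6 higher and 5 lower, and both with an unadjusted p under 0.05 were lower. The median of 0.02 changed sign to -0.0154 with the rows of a symbol summed, -0.0201 without AdWT replicate 1 and -0.0371 without AdKO replicate 1. *Pxdn* encodes peroxidasin, the enzyme that forms the sulfilimine crosslinks of collagen IV. It was at 108, 128 and 125 CPM in libraries labelled AdWT against 98.3, 79.9 and 84.9 CPM in libraries labelled AdKO, with no overlap. The log2 fold change was -0.46 (standard error 0.103, 95% interval -0.70 to -0.22), with an adjusted p of 0.817 that ranged from 0.115 in DESeq2 to 0.998 over the alternatives. *Hmcn2*, a hemicentin, had counts of 123, 132 and 165 against 78, 44 and 97 (log2 fold change -0.93, standard error 0.284, adjusted p = 0.851). *Ntn1*, a netrin related to the laminins, was at 101 ± 11.2 and 111 ± 6.78 CPM (log2 fold change 0.14), and *Efemp1*, a fibulin, was at 389 ± 111 and 379 ± 55.1 CPM (log2 fold change -0.04, which was 0.02 with library size scaling).

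Receptors had 13 of 20 genes tested, 4 higher and 9 lower (median -0.08), and none past an unadjusted p of 0.05. *Bcam*, a laminin receptor, was at 83.0 ± 17.7 and 101 ± 7.42 CPM (SD, n = 3 each; log2 fold change 0.28, adjusted p = 0.853). *Itga1*, a collagen-binding integrin chain, was at 92.7 ± 23.4 and 74.0 ± 19.3 CPM (log2 fold change -0.33, standard error 0.244, and -0.13 without AdKO replicate 2 or -0.52 without AdWT replicate 1). *Sgcb*, a sarcoglycan of the dystroglycan complex, was at 161 ± 9.90 and 148 ± 5.53 CPM (log2 fold change -0.12, adjusted p = 0.853) without overlap. The syndecans, which carry heparan sulfate on the cell surface, had log2 fold changes of 0.31 for *Sdc3*, 0.08 for *Sdc2*, -0.03 for *Sdc4* and 0.39 for *Sdc1*, which had only 28 to 56 counts per library, each with overlapping groups. That of *Sdc3* was 0.10 without AdWT replicate 3 and 0.62 without AdWT replicate 1, that of *Sdc1* lay between 0.20 and 0.79 with a library left out, and that of *Sdc4* was 0.03 with library size scaling.

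Genes of collagen synthesis and folding had 11 of 18 tested, 9 higher and 2 lower (median 0.08). *P4hb*, a subunit of prolyl hydroxylase, was at 1117 ± 22.5 and 1130 ± 72.4 CPM (log2 fold change 0.02). The lower pair was *Plod3*, a lysyl hydroxylase (log2 fold change -0.16, standard error 0.0745, adjusted p = 0.851), and *Sec23a*, part of the coat of secretory vesicles (log2 fold change -0.12, standard error 0.0724). *Crtap*, *Ppib*, *Plod1* and *Colgalt1*, which modify or fold the collagen chain, had log2 fold changes of 0.07, 0.08, 0.10 and 0.08. Heparan sulfate synthesis and editing had 17 of 27 tested, 11 higher and 6 lower, with a median of 0.04 that was -0.00433 without AdKO replicate 2. *Xylt1*, which starts the sugar chain on a proteoglycan core, had counts of 64, 59 and 47 in libraries labelled AdWT against 70, 68 and 106 in libraries labelled AdKO (log2 fold change 0.53, standard error 0.209, adjusted p = 0.851). Its paralog *Xylt2* was at 113 ± 5.55 and 117 ± 9.97 CPM (SD, n = 3 each; log2 fold change 0.05). *Extl3*, a glycosyltransferase that extends the linker, was at 923 ± 50.5 and 858 ± 55.5 CPM (log2 fold change -0.11, adjusted p = 0.859), and *Hs6st1*, a sulfotransferase, was at 239 ± 12.8 and 224 ± 27.9 CPM (log2 fold change -0.09). *Hmcn2*, *Xylt1* and *Lama5* met the rule for named genes but fell below its limit of 20 by mean CPM, and they and *Sdc1* were added after their values were seen.

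Rows outside the set were ranked by how like their pattern over the 6 libraries was to that of *Hspg2*. Likeness was the root mean square difference of log2(CPM + 0.5), centred on the mean of the 6 libraries, over the 4740 rows with a mean of at least 10 CPM. Of the 5 nearest rows, 4 are given. *Gpc1*, which encodes glypican, a heparan sulfate proteoglycan held to the cell surface by a lipid anchor, was the nearest at 0.0577. It was at 693, 726 and 662 CPM in libraries labelled AdWT against 518, 567 and 457 CPM in libraries labelled AdKO. This is the same order of libraries within each group as for *Hspg2*, and *Slc13a4*, given below, had it too. Its means were 694 ± 32.0 and 514 ± 55.4 CPM (SD, n = 3 each), a log2 fold change of -0.43 (standard error 0.0952). Among the others was *Nedd9*, an adaptor of integrin signalling, at 0.0804 (13.0 ± 0.749 and 8.45 ± 1.40 CPM). *Clmp*, a cell adhesion molecule, followed at 0.115 (25.0 ± 2.20 and 18.1 ± 1.34 CPM), with *Slc13a4*, a sodium sulfate cotransporter, also at 0.115 (67.5 ± 6.69 and 52.5 ± 3.45 CPM). Since these rows were picked for their likeness to a gene that was lower, their lower level in AdKO follows from the choice and is given without a test. A like order of libraries also goes with that choice.

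The members of the set were farther from *Hspg2* by the same measure. *Nid1* was the nearest of them at 0.230, with 277 rows closer, and *Col18a1* was at 0.242, with 391 closer. *Lamc1* (0.300), *Lamb1* (0.333) and *Lama4* (0.355) had 1739, 2756 and 3317 rows closer. Because *Hspg2* was chosen for being lower, this distance depends in part on whether a gene was lower too, and it is given as a description.

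**Figure D5:**
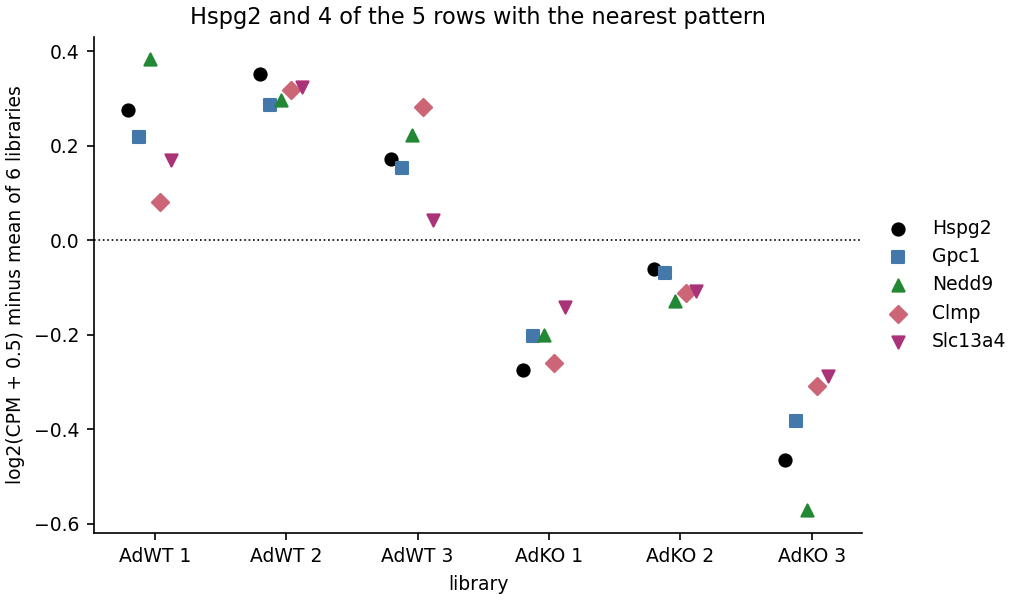
Log2(CPM + 0.5) minus the mean of the 6 libraries for *Hspg2* and 4 of the 5 rows nearest to it in pattern, by library (points, one symbol per gene). In each library labelled AdWT the values lie above 0 and in each labelled AdKO below it, which the choice of rows fixes, and AdKO replicate 2 lies nearest 0 for *Hspg2*.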

How the data were processed

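Bulk RNA was sequenced from iWAT of 3 mice labelled AdWT and 3 labelled AdKO. Per the labels and methods, KAPA Stranded libraries were read on an Illumina HiSeq and aligned with HISAT2 to mm9, and DESeq2 was used for testing. The authors deposited raw counts in a table of 37024 rows, of which 17470 were at 0 in every library, and applied no normalization. The counting tool is not given in the sources used here. The libraries of a group are described as biological replicates.

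Counts were filtered with filterByExpr, scaled by TMM and compared with edgeR 4.0.16 (glmQLFit, glmQLFTest, limma 3.58.1, R 4.3.3), with Benjamini-Hochberg adjustment over 9872 rows and a threshold of 0.05. Standard errors were derived from the log2 fold change and the F statistic. The common biological coefficient of variation was 0.196, and intervals and the floor of 3 counts are for the spread and for counting error only, respectively. Ratios added 0.5 counts. Loci and exons are from GENCODE for NCBIM37. DESeq2 1.42.0, RLE, upper quartile and library size scaling, other filters, a replicate block, summed rows and libraries left out were alternatives. Tables and figures used Python 3.11.15 (pandas 2.3.3, scipy 1.17.1, numpy 2.4.6, matplotlib 3.10.9), and the edgeR script was tested on simulated data.

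The members, gene lists and tests were chosen with earlier results of these data known. Named were all 10 members, genes of the related lists with an unadjusted p under 0.05 or a mean over 50 CPM (at most 20, by mean CPM, from 27 that qualified), and the 5 rows most like *Hspg2*, of which 1 is not reported here. No 2 libraries were duplicates.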

Additional observations from a re-analysis of the deposited data

How the results depend on the processing

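*Hspg2* kept its direction under every alternative run, from -0.54 to -0.48 over the other settings and -0.64 to -0.43 with a library left out. For a gene chosen for being lower, whose groups do not overlap, a kept direction is a description and not a check. Rows with an adjusted p under 0.05 rose from 0 to 17 with DESeq2, to 27 with DESeq2 filtering tuned to 0.05 (an alternative chosen after seeing the data), to 1 where any row with a count was kept, and ran from 0 to 1 with a library left out. DESeq2's default filtering is tuned to 0.1, and the cause of the difference between the tools was not tested. Rows with an unadjusted p under 0.05 went from 566 to 329 without AdWT replicate 2 and 1208 without AdWT replicate 1. With library size only, 313 were higher and 162 lower, against 272 and 294, and the median of all rows was 0.05. *Lama4* ran from -0.0150 to 0.11, and the *Lama4* to *Lamc1* log2 ratio from -0.0537 to 0.11, with a library left out. The log2 difference of *Lamb1* to *Lamc1* ran from 0.0397, without AdWT replicate 2, to 0.0759. The median of other collagen IV chains and multiplexins was 0.12 with at least 1 count in any library, where more genes enter, and that of heparan sulfate synthesis and editing ran from -0.00433 to 0.13, highest without AdKO replicate 3. With a library left out, medians ran from -0.15 to -0.0417 for other laminin chains and -0.19 to -0.00106 for other collagen IV chains and multiplexins. They ran from -0.0833 to -0.0290 for receptors and 0.0396 to 0.14 for collagen synthesis and folding. Log2 fold changes that crossed 0 with a library left out ran from -0.0448 to 0.0485 for *P4hb*, -0.0718 to 0.0301 for *Lamb2*, -0.21 to 0.20 for *Efemp1*, -0.0438 to 0.17 for *Plod1*, -0.0336 to 0.18 for *Colgalt1*, -0.24 to 0.12 for *Sdc4*, -0.0225 to 0.14 for *Ppib* and -0.00433 to 0.12 for *Xylt2*. With library size only, *Lamb2* was at 0.0370, *Efemp1* at 0.0165 and *Sdc4* at 0.0261. Causes were not tested. Without changing sign, single libraries left out moved *Hs6st1* between -0.18 and -0.00180, *Bcam* between 0.19 and 0.47, *Ntn1* between 0.0744 and 0.22, *Extl3* between -0.15 and -0.0522, *Sgcb* between -0.15 and -0.0697 and *Lama5* between -0.25 and -0.0744. They moved *Crtap* between 0.0396 and 0.0958, and it was 0.11 with library size only.

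With the replicate number as a block, *Hspg2* was at -0.53, 0 rows had an adjusted p under 0.05 and 418 an unadjusted p under 0.05. Same-numbered libraries correlated at -0.10, -0.12 and 0.35 in their deviations from the group means and did not each correlate best with their own number. With 3 libraries a group this does not decide whether the numbers pair the samples. With 3 pairs the sign-flip test of the ratios cannot give a p below 0.25.

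With 3 libraries a group, the interval of *Hspg2* is about as wide as its estimate. *Agrn*, *Nid2*, *Col4a1* and *Col4a2* could not be measured from these rows.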
